A study of Mus musculus with 18 samples.

Results

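The genes described here encode proteins of the extracellular matrix other than collagens, together with enzymes and inhibitors that remodel that matrix. The 41 genes were listed by name and role with earlier results of these data known, no measured value entering the rule, and all 41 were found among the 20066 genes of the table of developmental stages and the 20495 rows of the table of fibroblasts. They were grouped by role into 6 small leucine-rich proteoglycans, 9 proteins of elastic fibers and microfibrils, 3 cross-linking enzymes, 8 matricellular proteins, 3 adhesive or space-filling proteins, 5 basement membrane proteins, 4 matrix metalloproteinases and 3 of their inhibitors.

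The extracellular matrix is the network of secreted proteins that surrounds cells and to which they attach. Fibroblasts are the main producers of interstitial matrix, in which proteoglycans coat collagen fibrils, fibrillins and elastin form elastic fibers, and lysyl oxidases cross-link both. Laminins and nidogens form the thin basement membrane under epithelial and endothelial cells, metalloproteinases cut matrix proteins, and blood cells, which live detached from such scaffolds, secrete little structural matrix but can secrete enzymes that degrade it.

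The study followed blood specification in the mouse and asked whether transcription factors of that process can turn fibroblasts into blood cells. RNA-seq was available for 18 samples of strain 129, of which 8 were single libraries of mouse embryonic fibroblasts (MEFs) and 10 were samples of cells differentiated in culture, with 2 replicates for each of 5 stages. The MEFs came from embryos at embryonic day 14.5 that were either wild type or iTal1-2A-GFP transgenic, the latter carrying rtTA and a TRE-TAL1 cassette through which doxycycline switches TAL1 on; which origin each library had is not given in the sources used here. Before seeding, cells negative for CD45, CD41, CD31 and CD117 were sorted, which removes blood and endothelial cells by their surface markers. Untreated fibroblasts are called uFIB; SL cultures were given TAL1 together with LMO2, SFGL cultures all of TAL1, FLI1, GATA2 and LMO2, and FGL cultures the last 3 of these without TAL1. Each group has 1 library at day 12 and 1 at day 21. FLI1, GATA2 and LMO2 were delivered by lentivirus, reprogramming cultures received hematopoietic cytokines, and whether uFIB shared that medium is not given in the sources used here. The libraries are from whole cultures that can hold converted and unconverted cells together, and in such bulk samples fewer cells of a type and less RNA per cell cannot be told apart. The stages were embryonic stem cells (ESC) with a Brachyury-GFP reporter, cultured on MEFs, mesoderm sorted as Brachyury-positive and FLK1-negative (MES), hemangioblasts positive for both (HB), CD41+ hematopoietic progenitors (HP) and CD11b+ macrophages (MAC). In the paper, hemogenic endothelium (HE) comes between HB and HP. No sample of that stage was among the 18, so HP was set beside HB.

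Expression is given as FPKM, the number of fragments normalized to transcript length and to sequencing depth, so that levels of different genes can be set side by side. The table of stages holds the authors' values, in which both replicates are already combined, so that no stage value has an error and no difference between stages was tested. The tables of stages and fibroblasts were normalized separately, and no level was compared across them. In the fibroblasts, the introduced factors were examined first: Tal1 was at 0.0414 and 0.415 FPKM in uFIB at days 12 and 21, at 58.0 to 347 FPKM in SL and SFGL, and at 7.04 and 0.0705 FPKM in the libraries labelled FGL. Fli1 was at 3.43 and 3.02 FPKM in uFIB and 8.29 and 3.35 FPKM in the libraries labelled FGL. Lmo2 was at 0.499 and 2.28 FPKM in uFIB and 36.2 and 66.5 FPKM in the libraries labelled FGL. Gata2 was at 1.80 and 2.13 FPKM in uFIB and 21.9 and 35.1 FPKM in the libraries labelled FGL. Lmo2 and Gata2 thus went with that label on both days, whereas Tal1 at day 12 and Fli1 at day 21 ran against it. Values given below for FGL are those of the libraries so labelled. All 8 fibroblast markers were above 1 FPKM in each of the 8 libraries, and their summed level was 6615 and 5214 FPKM in uFIB, 2249 and 1153 in SL, 1853 and 948 in SFGL and 5414 and 5079.9 in FGL. Most of each sum was Col1a1, Col1a2 and Col3a1, which are collagen genes and so matrix genes themselves. In uFIB at day 12 these were at 2409, 1711 and 1877 FPKM. The summed level of 8 blood progenitor markers was 29.3 and 45.9 FPKM in uFIB, 450.2 and 398 in SL, 551 and 544 in SFGL and 78.2 and 42.8 in FGL. The part of this change in cell markers in the matrix results was not tested.

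The 250 bases before the start of transcription are shown for 4 genes that mark the range of the results: Mmp13 and Mmp3, neighbors on chromosome 9 and the only genes with an AP-1 match among the 23 members whose promoter was searched, Dpt, which had the largest mean fall in SL and SFGL, and Timp1, which had the smallest difference in SFGL. Sequences are from RefSeq on GRCm38.p6, read 5′ to 3′ on the plus strand on which all 4 genes lie, and capitals mark the AP-1 match. The windows are chr9:7272264-7272513 for Mmp13, chr9:7445572-7445821 for Mmp3, chr1:164796413-164796662 for Dpt and chrX:20869916-20870165 for Timp1.
Mmp13: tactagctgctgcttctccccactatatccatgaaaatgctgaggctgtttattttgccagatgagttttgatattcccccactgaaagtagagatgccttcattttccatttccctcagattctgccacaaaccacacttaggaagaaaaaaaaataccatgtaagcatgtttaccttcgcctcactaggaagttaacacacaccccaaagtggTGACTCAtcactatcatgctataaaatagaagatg
Mmp3: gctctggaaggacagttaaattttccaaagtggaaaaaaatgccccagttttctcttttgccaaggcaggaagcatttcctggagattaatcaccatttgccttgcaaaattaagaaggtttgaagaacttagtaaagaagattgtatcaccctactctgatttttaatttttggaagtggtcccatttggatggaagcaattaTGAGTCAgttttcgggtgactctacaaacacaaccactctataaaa
Dpt: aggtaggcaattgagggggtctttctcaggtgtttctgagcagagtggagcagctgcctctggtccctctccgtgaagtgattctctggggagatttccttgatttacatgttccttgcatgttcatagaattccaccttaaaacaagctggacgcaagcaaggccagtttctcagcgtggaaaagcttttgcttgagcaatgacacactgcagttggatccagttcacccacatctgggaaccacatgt
Timp1: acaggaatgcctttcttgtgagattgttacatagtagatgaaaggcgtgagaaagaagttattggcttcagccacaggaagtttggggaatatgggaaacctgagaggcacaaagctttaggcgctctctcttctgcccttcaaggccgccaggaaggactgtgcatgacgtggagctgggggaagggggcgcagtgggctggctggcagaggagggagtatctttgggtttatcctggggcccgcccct

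RefSeq promoters were matched for 23 of the 41 genes, 28 promoters in all, since some genes have more than 1. Matches below are named by gene, whereas the shares are of promoters, so the units differ. The AP-1 motif, searched as TGANTCA on both strands, was present in the promoters of Mmp13 and Mmp3 among these 23 and in 6.75% of all 32851 mouse promoters of the same length. These are 2 of the 28 member promoters, a share near that of all promoters. The match began 35 bases before the start of Mmp13 and 46 before that of Mmp3, and it did not overlap the TATAAA also found in both. TATAAA occurred in Aspn, Mmp13, Mmp3, Ogn, Postn, Thbs2 and Tnc, against 12.4% of all promoters, and the TEAD motif GGAATG in Mfap2, Nid1, Ogn and Timp1, against 12.6%. The RefSeq gene bodies are chr9:7272514-7283333 for Mmp13, chr9:7445822-7455975 for Mmp3, chr1:164796663-164824274 for Dpt and chrX:20870166-20874737 for Timp1, while the authors' locus for Timp1 spans chrX:20848543-20920918. These matches describe letters in a window and no binding was measured here.

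Untreated fibroblasts carried a large matrix program, and it was lower in SL and SFGL. Together the 41 genes summed to 16568 FPKM in uFIB at day 12 and 13254 at day 21, to 5123 and 5814 in SL, 4068 and 4441 in SFGL and 16000.3 and 13786 in FGL. These sums were 4.27% and 3.57% of all FPKM in uFIB, 1.11% and 1.51% in SL, 0.855% and 1.05% in SFGL and 4.28% and 3.66% in FGL. In uFIB, 40 of the 41 genes reached 10 FPKM and 26 reached 100 FPKM in both libraries. Sparc ranked 4 and Bgn 5 among all genes by FPKM in uFIB at day 12, and 6 and 9 at day 21. No member was among the 20 highest genes in any SL or SFGL library, where Sparc ranked 95 and Bgn 100 in SL at day 12.

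Each treatment was compared with uFIB by limma on log2(FPKM + 1) with treatment and day as terms, over the 11991 genes whose mean reached 1 FPKM, all 41 members among them, and p-values were adjusted by Benjamini-Hochberg. Nothing in the labels says that the libraries came from separate cultures, so that p measures the spread between these libraries only. With 1 library per treatment and day, that spread is what is left after treatment and day. The days of a treatment thus stand in for replicates. A difference from uFIB that changes between the days raises the SE, so that each SE is not an error between replicates. In SL 33 of the 41 genes fell (adjusted p under 0.05) and 0 rose, where 27.1% of all genes tested fell and 25.4% rose. In SFGL 35 fell and 0 rose, against 30.8% and 28% of all genes. The median difference of the members was −1.68 in SL and −2.08 in SFGL on the log2 scale, and that of all genes was −0.03 in both. In FGL 0 members passed in either direction, against 0% of all genes lower and 0.0167% higher, and 1 member had an unadjusted p under 0.05, where 286 genes of all were lower and 180 higher at that level. The 3 comparisons share the uFIB libraries and are given side by side. Both SL libraries lay below both uFIB libraries for 39 of the 41 genes, with Loxl2 and Thbs1 as the exceptions, against 39.9% of all genes. Both SFGL libraries did so for 39 genes, with Thbs1 and Timp1 as the exceptions, against 40.9%.

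**Figure D1:**
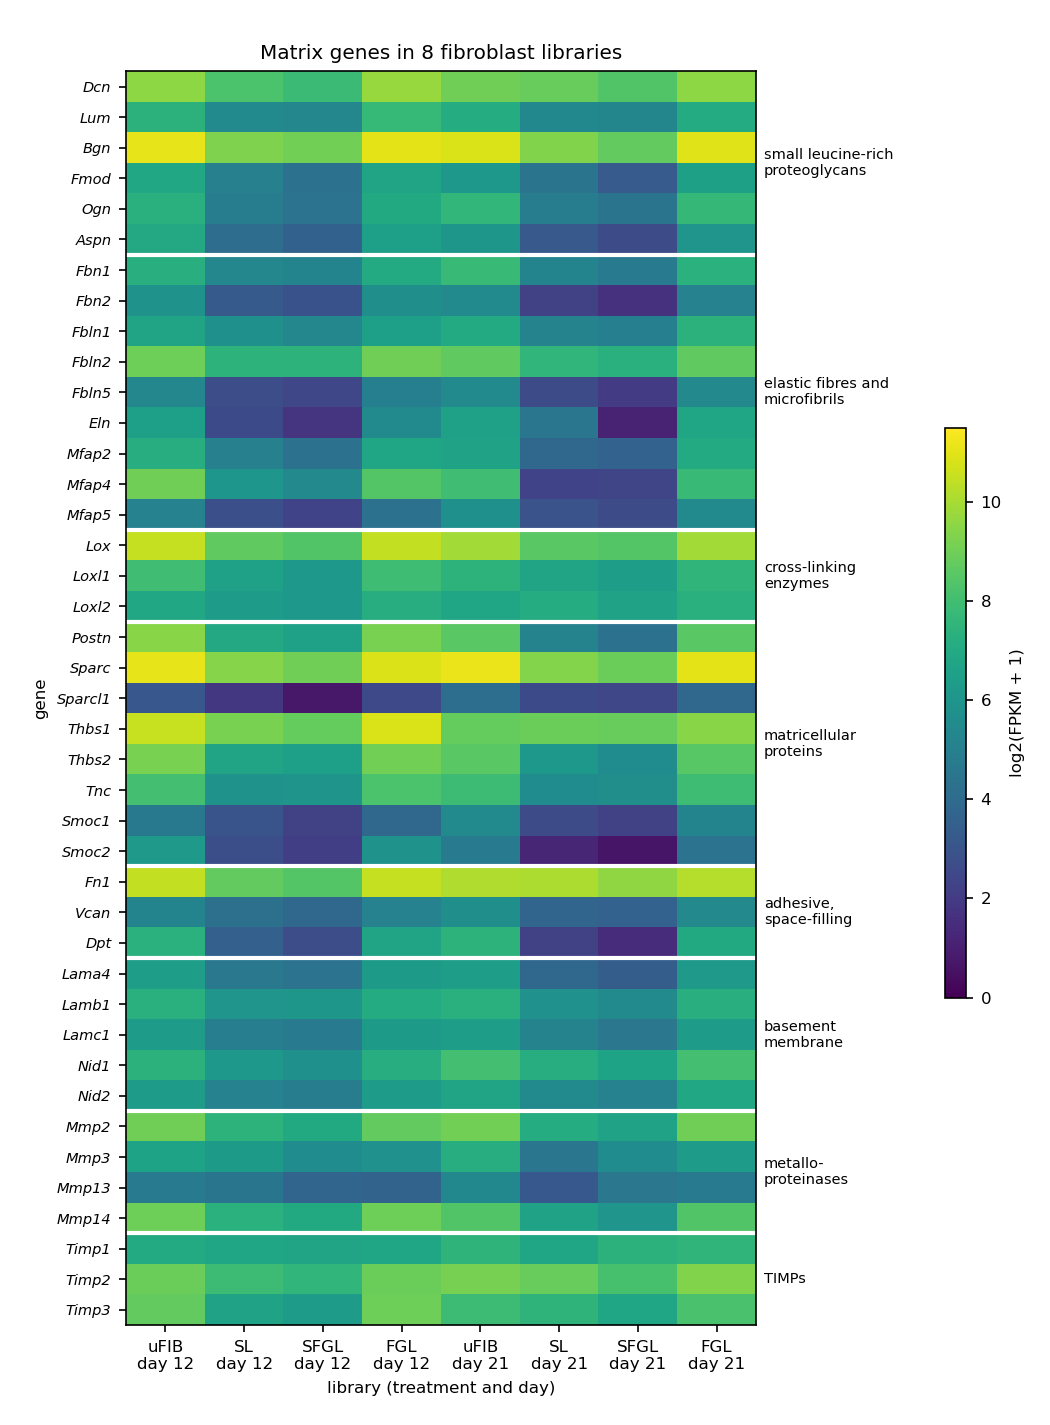
Level of the 41 genes, in rows by role, in the 8 fibroblast libraries, in columns, as log2(FPKM + 1) by color. The uFIB and FGL columns are similar in shade, with median levels of 128 to 174 FPKM, and the SL and SFGL columns are darker, with medians of 33.0 to 59.9 FPKM.

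In the following, pairs of values are for day 12 and day 21. The small leucine-rich proteoglycans, which bind collagen fibrils and set their spacing, fell in 5 of 6 cases in SL and in 6 of 6 in SFGL, with median log2 differences of −1.82 and −2.39. Bgn (biglycan) was at 2160.2 and 1854 FPKM in uFIB, 619 and 632 in SL, 522 and 426 in SFGL and 2088 and 1975 in FGL. Dcn (decorin), which also binds TGF-β, was at 753 and 513 FPKM in uFIB, 303 and 458 in SL, 226 and 331 in SFGL and 857 and 735 in FGL. Lum (lumican) was at 169 and 136 FPKM in uFIB, 42.8 and 39.7 in SL, 39.2 and 37.4 in SFGL and 207 and 132 in FGL. For all 3 genes the SL and SFGL libraries lay below both uFIB libraries, and those of Dcn in SL came close to them at day 21. The log2 difference of Bgn was −1.68 ± 0.12 (SE) in SL and −2.08 ± 0.12 in SFGL (limma, adjusted p = 0.00105 and 0.000511). Dcn differed by −0.74 ± 0.31 in SL, which did not pass (adjusted p = 0.0977), and fell by 1.18 ± 0.31 in SFGL (adjusted p = 0.022). The calls on Dcn depended on single libraries, with an adjusted p of 0.043 in SL without uFIB at day 21, and of 0.135 and 0.114 in SFGL without SFGL or uFIB at day 12.

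Fmod (fibromodulin), which controls fibril width, was at 116 and 69.1 FPKM in uFIB, 30.9 and 20.4 in SL, 18.6 and 8.83 in SFGL and 103 and 92.8 in FGL. Ogn (osteoglycin) was at 155 and 198 FPKM in uFIB, 28.5 and 28.0 in SL, 19.6 and 20.3 in SFGL and 127 and 201 in FGL. Aspn (asporin) was at 121 and 66.1 FPKM in uFIB, 16.2 and 8.23 in SL, 10.8 and 5.37 in SFGL and 89.4 and 63.2 in FGL. Aspn had the largest fall of the proteoglycans, of −2.84 ± 0.13 in SL and −3.38 ± 0.13 in SFGL on the log2 scale (limma, adjusted p = 0.00105 and 0.000491). The authors give the same locus, chr13:49464059-49652731, for Aspn and Ogn. The RefSeq genes do not overlap, with Aspn at chr13:49544443-49567565 and Ogn at chr13:49608015-49624501.

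The elastic fiber group fell without exception, with 9 of 9 genes past the test in both SL and SFGL and medians of −2.56 and −2.94. Eln encodes elastin, the rubber-like core of the fiber, and was at 89.5 and 95.5 FPKM in uFIB, 4.97 and 21.6 in SL, 2.41 and 1.20 in SFGL and 43.8 and 111 in FGL. Mfap4, a protein of microfibrils, was at 509 and 249.6 FPKM in uFIB, 64.5 and 3.99 in SL, 41.8 and 4.26 in SFGL and 343 and 216 in FGL. These genes moved differently with time, since uFIB exceeded SL 18.0-fold at day 12 and 4.42-fold at day 21 for Eln, but 7.9-fold and 62.6-fold for Mfap4. In SFGL Eln was lower than uFIB 37.2-fold at day 12 and 79.6-fold at day 21. Eln differed by −3.01 ± 0.61 in SL and −5.09 ± 0.61 in SFGL (limma, adjusted p = 0.0108 and 0.0016), and its call in SL was lost without SL or uFIB at day 12 (adjusted p = 0.0579 and 0.0698). Mfap4 differed by −4.31 ± 0.79 and −4.57 ± 0.79 (adjusted p = 0.00766 and 0.00501).

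Fibrillins are the backbone of the microfibrils on which elastin is laid down. Fbn1 was at 153 and 213 FPKM in uFIB, 39.0 and 35.1 in SL, 34.9 and 24.5 in SFGL and 128 and 161 in FGL. Fbn2, more typical of embryonic tissue, was at 57.9 and 42.5 FPKM in uFIB, 8.51 and 3.61 in SL, 6.56 and 2.11 in SFGL and 52.1 and 33.5 in FGL. Both lay far below uFIB on both days, Fbn2 by −2.93 ± 0.22 in SL and −3.38 ± 0.22 in SFGL (limma, adjusted p = 0.00105 and 0.000517). Mfap2, which binds fibrillin, was at 142 and 96.9 FPKM in uFIB, 31.5 and 13.7 in SL, 18.7 and 11.3 in SFGL and 109 and 130.0 in FGL. Mfap5 was at 33.1 and 54.5 FPKM in uFIB, 6.09 and 6.65 in SL, 4.04 and 5.38 in SFGL and 18.9 and 45.0 in FGL. For both genes no SL or SFGL value overlapped those of uFIB. Of the bases in Fbn1 exons, 20.3% overlap exons of the neighboring gene Gm9913, and whether counting used the strand is not given in the sources used here, so that their reads cannot be told apart.

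Fibulins bridge microfibrils, elastin and cells. Fbln2 was at 492 and 409 FPKM in uFIB, 169 and 187 in SL, 173 and 154 in SFGL and 515 and 412 in FGL. Fbln1 was at 105 and 129 FPKM in uFIB, 54.0 and 33.9 in SL, 39.3 and 29.9 in SFGL and 88.0 and 164 in FGL. Fbln5, needed for elastic fiber assembly, ranged from 30.4 to 44.9 FPKM in uFIB and FGL and from 3.08 to 5.49 FPKM in SL and SFGL. The drop was steepest for Fbln5, at −2.74 ± 0.21 in SL and −3.18 ± 0.21 in SFGL (limma, adjusted p = 0.00108 and 0.00055), and weaker for Fbln1, at −1.42 ± 0.37 and −1.73 ± 0.37 (adjusted p = 0.0249 and 0.0112). The call on Fbln1 was lost in SL without SL at day 21 or without uFIB at day 12 or day 21 (adjusted p = 0.136, 0.0756 and 0.124), and in SFGL without SFGL or uFIB at day 21 (0.078 and 0.0662).

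Among the lysyl oxidases, which cross-link collagen and elastin, 2 of 3 fell in SL and in SFGL. Lox was at 1457 and 951 FPKM in uFIB, 415 and 372 in SL, 329 and 346 in SFGL and 1373 and 960.3 in FGL. Loxl1, which acts on elastic fibers, was at 254 and 174 FPKM in uFIB, 95.3 and 103 in SL, 68.6 and 82.5 in SFGL and 241 and 186 in FGL. Both were separated from uFIB on both days, Lox by −1.58 ± 0.19 in SL and −1.80 ± 0.19 in SFGL (limma, adjusted p = 0.00226 and 0.00114). Loxl2 overlapped with uFIB in SL but not in SFGL, with 115 and 109.7 FPKM in uFIB, 80.6 and 140.1 in SL, 69.0 and 96.8 in SFGL and 143 and 157 in FGL. Its difference in SL was −0.08, with a 95% interval of −0.62 to 0.46, and turned to 0.22 and 0.19 without SL or uFIB at day 12. Loxl1 fell by 1.08 ± 0.22 in SL and by 1.47 ± 0.22 in SFGL (adjusted p = 0.0105 and 0.00308), and the call in SL was lost without SL or uFIB at day 12 (0.0731 and 0.0621).

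Matricellular proteins modulate the contact of cells with the matrix rather than build it, and 7 of 8 fell in SL and in SFGL, with medians of −2.23 and −2.49. Sparc (osteonectin), a collagen-binding protein, was at 2171 and 2261 FPKM in uFIB, 672 and 669 in SL, 512 and 481 in SFGL and 1912 and 2088 in FGL. Postn (periostin) was at 699 and 379 FPKM in uFIB, 122 and 33.8 in SL, 95.9 and 19.4 in SFGL and 581 and 374 in FGL. Tnc (tenascin C) was at 265 and 233 FPKM in uFIB, 59.9 and 46.8 in SL, 60.2 and 50.5 in SFGL and 301 and 246 in FGL. Sparc differed by a nearly constant amount, with uFIB above SL 3.23-fold at day 12 and 3.38-fold at day 21, whereas for Postn these folds were 5.73 and 11.2. On the log2 scale Sparc differed by −1.72 ± 0.11 in SL and −2.16 ± 0.11 in SFGL (limma, adjusted p = 0.00105 and 0.000511), Postn by −2.98 ± 0.41 and −3.54 ± 0.41 (0.00319 and 0.00145) and Tnc by −2.21 ± 0.09 and −2.15 ± 0.09 (0.00105 and 0.000491).

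The thrombospondins Thbs1 and Thbs2, which bind matrix and restrain vessel growth, did not behave alike. Thbs2 was at 582 and 372 FPKM in uFIB, 104 and 69.0 in SL, 88.0 and 47.9 in SFGL and 534 and 366 in FGL, a difference of −2.44 ± 0.11 in SL and −2.82 ± 0.11 in SFGL (limma, adjusted p = 0.00105 and 0.000491). Thbs1 was at 1492 and 443 FPKM in uFIB, 583 and 483 in SL, 443 and 459 in SFGL and 1865 and 711 in FGL. At day 21 the SL and SFGL values of Thbs1 were thus slightly above uFIB, and its difference in SL was −0.62, with a 95% interval of −1.77 to 0.54 (adjusted p = 0.305), and in SFGL −0.85 ± 0.46 (0.166). Smoc2, a SPARC-related protein of basement membranes, was at 74.6 and 25.6 FPKM in uFIB, 5.85 and 1.33 in SL, 3.39 and 0.590 in SFGL and 59.0 and 19.9 in FGL. It had the smallest adjusted p of the members, with a difference of −3.49 ± 0.09 in SL and −4.08 ± 0.09 in SFGL (0.000742 and 0.000352). The related Smoc1 ranged from 13.7 to 44.7 FPKM in uFIB and FGL and from 3.72 to 7.03 FPKM in SL and SFGL. Sparcl1 ranged from 4.82 to 16.8 FPKM and from 0.694 to 5.06 FPKM in the same groups, so that FGL at day 12 lay below SL at day 21. Without uFIB at day 21 the call on Smoc1 in SL was lost (adjusted p = 0.0505).

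Dpt (dermatopontin), which links decorin and collagen, had the largest mean difference of the 41 genes. It was at 159.8 and 174 FPKM in uFIB, 10.4 and 3.65 in SL, 5.55 and 1.72 in SFGL and 105 and 125 in FGL. In SL it was 15.4-fold lower than uFIB at day 12 and 47.7-fold at day 21, and in SFGL 28.8-fold and 101-fold. The log2 differences were −4.53 ± 0.45 and −5.31 ± 0.45 (limma, adjusted p = 0.00146 and 0.000701). Vcan (versican), a large space-filling proteoglycan, was at 35.6 and 52.2 FPKM in uFIB, 18.1 and 12.4 in SL, 13.9 and 11.2 in SFGL and 33.5 and 41.6 in FGL, and fell in both (adjusted p = 0.00799 and 0.00379). Fn1 (fibronectin), the main adhesive protein for integrins, was at 1387 and 1119 FPKM in uFIB, 431 and 1072 in SL, 341 and 763 in SFGL and 1446 and 1189 in FGL. At day 21 SL was close to uFIB for Fn1, and the gene ranked 30 among all genes in that library. Its difference in SL was −0.87, with a 95% interval of −2.06 to 0.31 (adjusted p = 0.173), and in SFGL −1.29 ± 0.47 (0.0623).

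The basement membrane genes fell in 5 of 5 cases in both SL and SFGL, with medians of −1.36 and −1.58. Laminins are trimers of an α, a β and a γ chain. Lama4, the α4 chain found under endothelium, was at 86.0 and 85.9 FPKM in uFIB, 23.6 and 13.3 in SL, 19.8 and 9.39 in SFGL and 76.5 and 71.2 in FGL. Lamb1 was at 154 and 157 FPKM in uFIB, 63.8 and 55.6 in SL, 66.6 and 43.6 in SFGL and 134 and 153 in FGL. Lamc1 was at 79.9 and 86.6 FPKM in uFIB, 29.7 and 34.1 in SL, 26.3 and 22.4 in SFGL and 75.1 and 80.7 in FGL. Of the 3 chains Lama4 had the largest difference, −2.21 ± 0.27 in SL and −2.56 ± 0.27 in SFGL (limma, adjusted p = 0.00235 and 0.00115), and Lamb1 and Lamc1 lay between −1.36 and −1.74.

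Nidogens link laminin to type IV collagen. Nid1 was at 169 and 267 FPKM in uFIB, 69.6 and 145 in SL, 53.8 and 101 in SFGL and 143 and 266 in FGL. Nid2 was at 78.8 and 106 FPKM in uFIB, 33.1 and 42.6 in SL, 27.1 and 33.0 in SFGL and 81.1 and 117 in FGL. Values of both were higher at day 21 than at day 12 in all 4 groups, and SL and SFGL lay below uFIB of the same day throughout. Nid1 fell by 1.07 ± 0.12 in SL and by 1.51 ± 0.12 in SFGL (limma, adjusted p = 0.00182 and 0.000647), and Nid2 by 1.26 ± 0.10 and by 1.58 ± 0.10 (0.00109 and 0.000513).

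Of the metalloproteinases, 2 of 4 fell in SL and in SFGL. Mmp2 (gelatinase A) was at 519 and 533 FPKM in uFIB, 173 and 139 in SL, 125 and 97.8 in SFGL and 423 and 519.97 in FGL. Mmp14, the membrane-bound enzyme that activates pro-MMP2, was at 495 and 334 FPKM in uFIB, 161 and 98.9 in SL, 126 and 63.0 in SFGL and 494 and 332 in FGL. The activator and its substrate fell by similar amounts, Mmp2 by 1.76 ± 0.18 in SL and 2.24 ± 0.18 in SFGL and Mmp14 by 1.68 ± 0.14 and 2.17 ± 0.14 on the log2 scale (limma, adjusted p = 0.00161, 0.000681, 0.00112 and 0.000511). Mmp3 (stromelysin 1) was at 102 and 144 FPKM in uFIB, 76.0 and 21.7 in SL, 46.8 and 46.8 in SFGL and 55.4 and 78.7 in FGL. Mmp13, a collagenase, was at 25.3 and 39.7 FPKM in uFIB, 20.9 and 8.08 in SL, 12.4 and 22.4 in SFGL and 11.8 and 24.9 in FGL. In SL both of these neighbors, whose promoters are shown above, were lower at day 21 than at day 12, whereas in SFGL Mmp3 was level and Mmp13 was higher at day 21, and in FGL both were below uFIB of the same day. Neither passed the test in SL (−1.54 ± 0.57 and −1.21 ± 0.56, adjusted p = 0.0671 and 0.121) or in SFGL (−1.35 ± 0.57 and −0.89 ± 0.56, 0.0897 and 0.222). Both passed in SL without SL at day 12 (adjusted p = 0.0124 for each), and in SFGL without either SL library (0.0045 for Mmp3 and 0.0072 to 0.0073 for Mmp13).

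The tissue inhibitors of metalloproteinases bind and block these enzymes, and 1 of 3 fell in SL and 2 of 3 in SFGL. Timp1 was at 131 and 179.7 FPKM in uFIB, 109.6 and 111 in SL, 103 and 169 in SFGL and 109.9 and 183 in FGL. Timp2 was at 487 and 564 FPKM in uFIB, 233 and 457 in SL, 188 and 288 in SFGL and 486 and 635 in FGL. Timp3, which binds matrix directly, was at 426 and 232 FPKM in uFIB, 99.0 and 175 in SL, 77.2 and 111 in SFGL and 498 and 296 in FGL. Timp1 stayed nearest to uFIB, with −0.47 ± 0.19 in SL and −0.22 ± 0.19 in SFGL (limma, adjusted p = 0.0897 and 0.363). Timp2 fell by 0.68 ± 0.19 and by 1.17 ± 0.19 (0.0313 and 0.00435), and Timp3 differed by −1.25 ± 0.46, which did not pass, and by −1.75 ± 0.46 (0.0675 and 0.0215). The call on Timp2 in SL was lost without SL or uFIB at day 12 (0.161 and 0.175) and without SFGL at day 12 or day 21 (0.0601 and 0.0598). The call on Timp3 in SFGL was lost without SFGL or uFIB at day 12 (0.130 and 0.124), Timp3 passed in SL without SL at day 21 (0.0476) and Timp1 without SL at day 12 (0.0284).

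**Figure D2:**
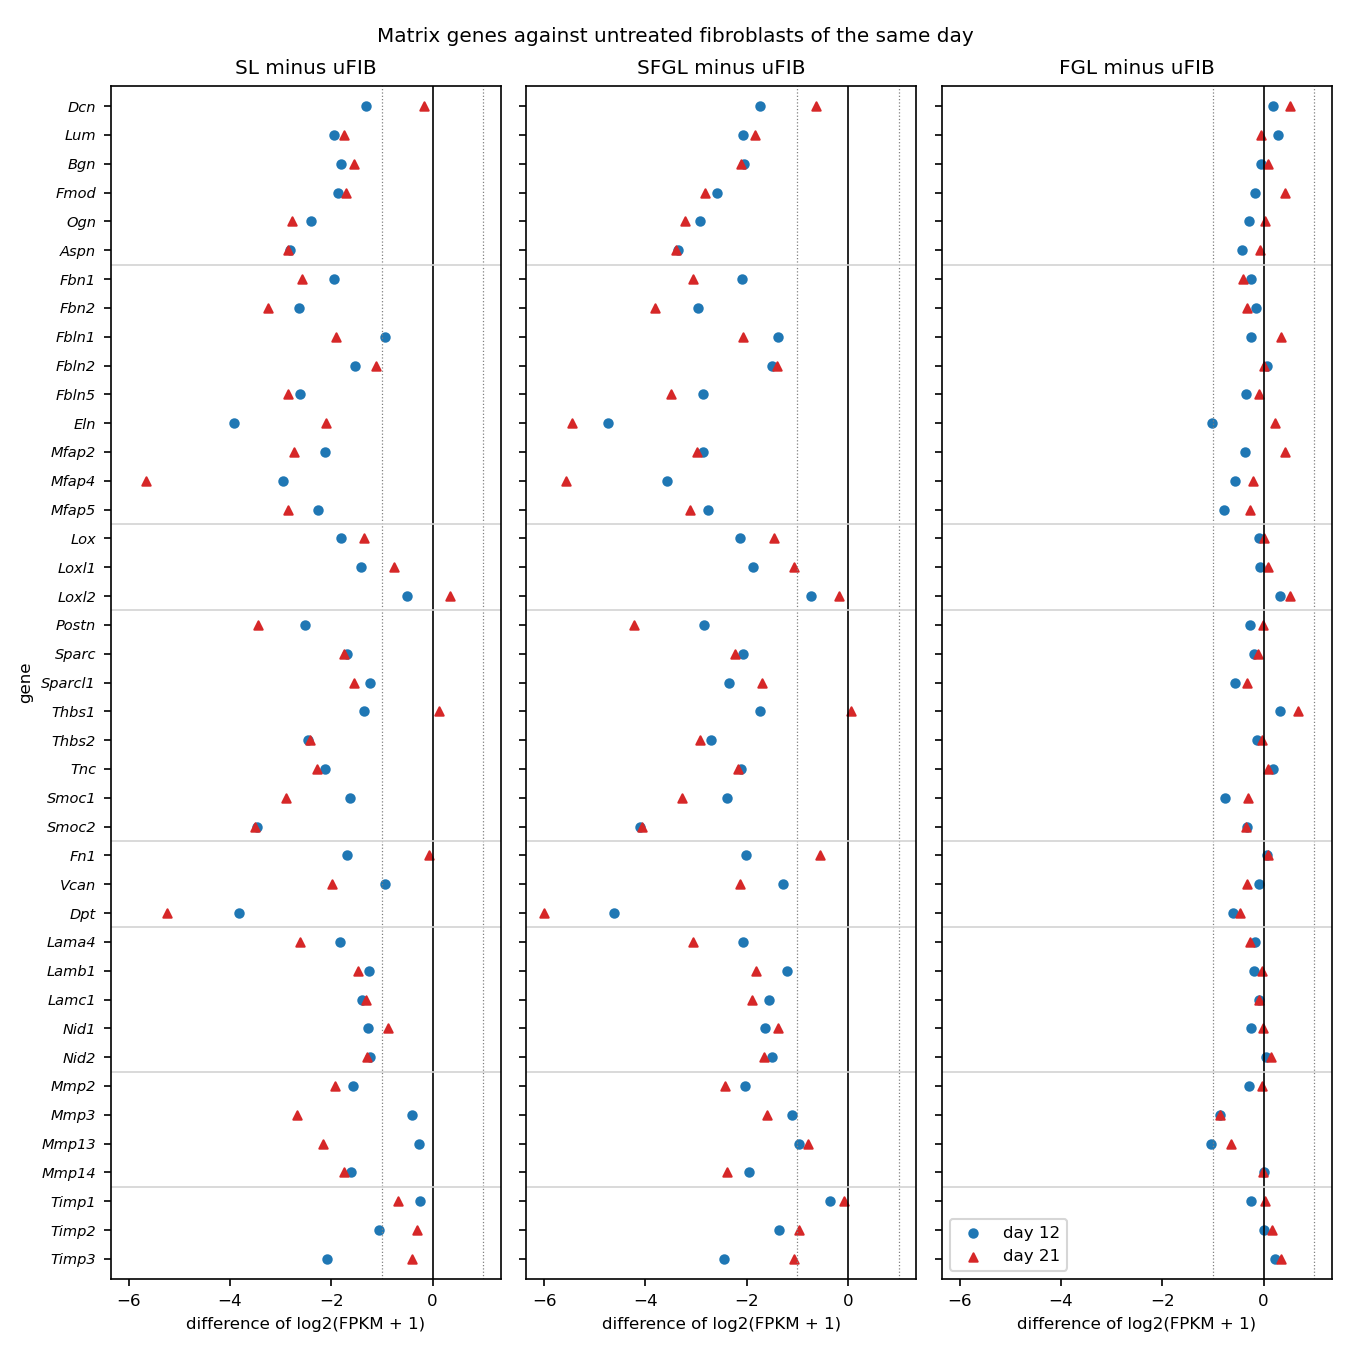
Difference of each gene from uFIB of the same day on log2(FPKM + 1), by role, in SL, SFGL and FGL, with circles for day 12, triangles for day 21 and dotted lines at −1 and 1. In SL and SFGL most points lie left of −1, down to −5.65 for Mfap4 in SL and −6.01 for Dpt in SFGL, both at day 21, and in FGL all genes but Eln and Mmp13 at day 12 lie within the dotted lines.

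By size alone, 28 of the 41 genes were at least 2-fold lower than uFIB on both days in SL on log2(FPKM + 1), against 8.4% of 12807 genes, and 34 in SFGL, against 12.1%. None was at least 2-fold higher on both days in either, against 9.85% and 10.7% of all genes. In FGL 0 members met either limit, against 0.0156% lower and 0.039% higher. The days nevertheless differed between genes. In SL the differences from uFIB that went up most from day 12 to day 21 were, in order, those of Eln (−3.92 and −2.09), Timp3 (−2.09 and −0.40), Fn1 (−1.68 and −0.06), Thbs1 (−1.35 and 0.12), Dcn (−1.31 and −0.16), Loxl2 (−0.51 and 0.35) and Timp2 (−1.06 and −0.30). Thbs1 and Loxl2 passed from below to above uFIB. The differences that went down most were those of Mfap4 (−2.96 and −5.65), Mmp3 (−0.41 and −2.67), Mmp13 (−0.26 and −2.16), Dpt (−3.82 and −5.23), Smoc1 (−1.64 and −2.89), Vcan (−0.94 and −1.99), Fbln1 (−0.94 and −1.90) and Postn (−2.51 and −3.45). With 1 library per treatment and day, these changes with time have no replicate check.

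**Figure D3:**
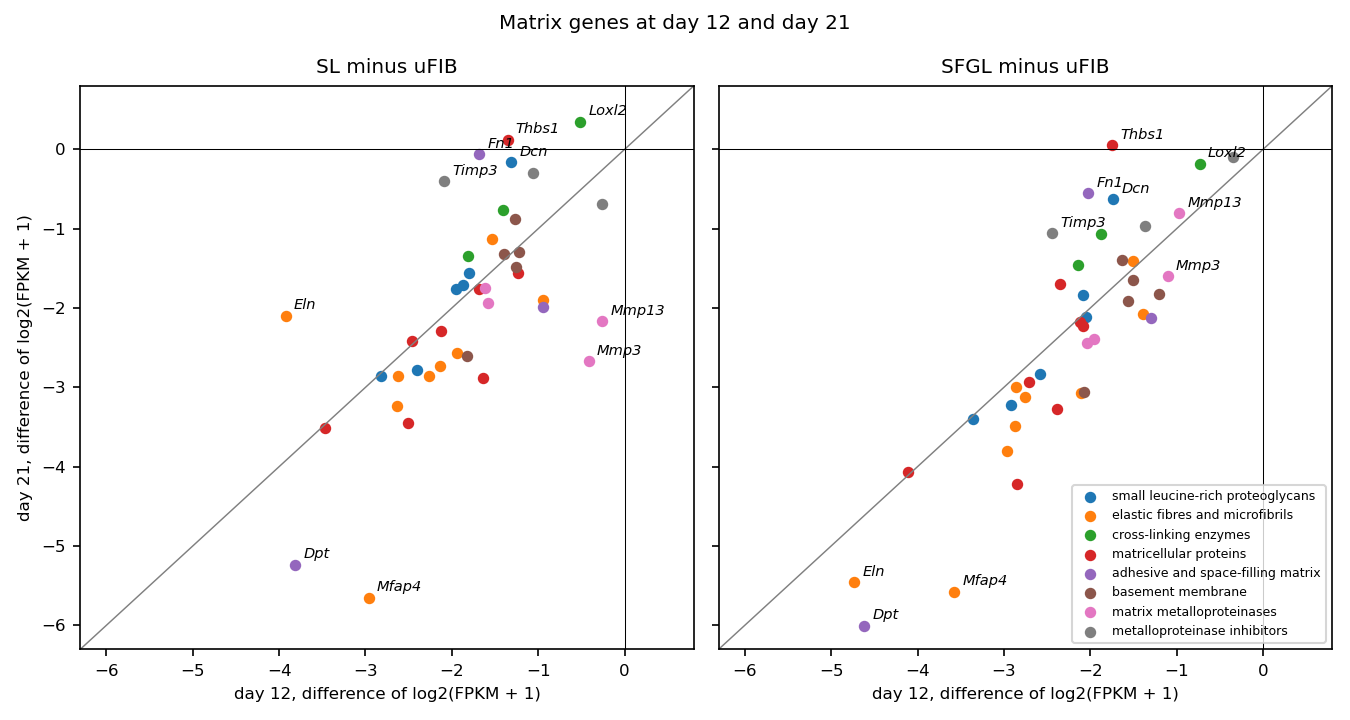
Difference from uFIB on log2(FPKM + 1) at day 12, on the x axis, and day 21, on the y axis, for SL and SFGL, with 1 point per gene colored by role and a gray line where both days are equal. In SL, Fn1 and Thbs1 lie above the line near 0 on the y axis, and Mfap4, Mmp3 and Mmp13 lie below it.

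SFGL, which adds FLI1 and GATA2 to the factors of SL, had lower values than SL on both days for 34 of the 41 genes, against 39.2% of all genes, and a higher value on both days for 1, Tnc, against 26.1%. None of these differences reached 2-fold on both days in either direction, as was also so for all but 0.0859% and 0.0937% of genes. The largest single difference was that of Eln at day 21, −3.36 on the log2 scale, from 21.6 FPKM in SL to 1.20 in SFGL. Fli1 itself was at 46.7 and 34.4 FPKM in SL and 41.2 and 27.8 in SFGL, so that its level does not show the added vector.

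In the libraries labelled FGL, 26 of the 41 differences were below 0 and 15 above, from −0.86 for Mmp3 to 0.50 for Thbs1, and adjusted p ranged from 0.931 to 0.998. Smoc2, at −0.34, was the member with an unadjusted p of 0.0112 in limma. The median of the members was −0.11, against −0.00 for all genes. That no member passed does not show that the levels were equal.

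Of 30 other matrix genes, 25 were tested and 19 fell and 3 rose in SL and likewise in SFGL, with medians of −1.12 and −1.52. Those that rose were Emilin2 (2.74 in SL and 3.11 in SFGL), an elastin-associated glycoprotein, Lama5 (2.10 and 2.61), a laminin chain, and Ecm1 (1.02 and 1.27). Of 25 other matrix proteases and inhibitors 21 were tested, 17 fell and 3 rose in both treatments. Mmp8, a collagenase of neutrophils, was at 1.99 and 2.65 FPKM in uFIB, 152.5 and 71.3 in SL, 78.0 and 77.7 in SFGL and 9.09 and 1.65 in FGL. Mmp9 (gelatinase B) was at 0.186 and 0.650 FPKM in uFIB, 62.5 and 31.4 in SL, 39.6 and 27.4 in SFGL and 2.87 and 0.190 in FGL. Plau (urokinase), which generates plasmin, was at 13.1 and 9.66 FPKM in uFIB, 83.9 and 115 in SL, 64.7 and 70.1 in SFGL and 14.0 and 10.4 in FGL. These 3 enzymes rose while Mmp2 and Mmp14 fell, with limma adjusted p of 0.00171 and 0.00152 for Mmp8, 0.0014 and 0.00113 for Mmp9 and 0.00107 and 0.000879 for Plau in SL and SFGL. Serpinh1, the collagen chaperone, fell by 1.55 and 1.91 on the log2 scale. Beside these changes the 8 fibroblast markers all fell, with medians of −1.85 and −2.16, and the 8 blood progenitor markers all rose, with medians of 4.52 and 5.01. The 7 macrophage markers summed to 10.2 and 7.82 FPKM in uFIB, 85.2 and 41.1 in SL, 66.5 and 47.3 in SFGL and 17.2 and 7.45 in FGL. In SL most of this was Cd14 (50.2 and 23.4 FPKM) and Cd68 (26.2 and 14.3). Emr1 was at 5.35 and 1.89 FPKM and Ctss at 1.82 and 0.313 in SL, and Csf1r, Mrc1 and Fcgr1 were under 1 FPKM there on both days. The part of macrophages in the rise of these enzymes was not tested.

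In the stages of blood development, 26 of the 41 genes reached 1 FPKM in at least 1 of the 5 stages, a share near the 59.7% of all genes, and 15 reached 10 FPKM. Together the members took 0.189% of all FPKM in ESC, and then 0.149%, 0.242%, 0.181% and 0.121% in MES, HB, HP and MAC. Among the 26, 9 were highest in HB, 5 each in ESC, HP and MAC, and 2 in MES, whereas of all expressed genes 18.0% had their maximum in HB, 20.2%, 8.88% and 46.8% in ESC, HP and MAC, and 6.12% in MES. The small leucine-rich proteoglycans were all under 1 FPKM in every stage, with a highest value of 0.472 FPKM for Bgn, and Ogn and Dpt were listed at 0 in all 5. A difference of at least 2-fold on log2(FPKM + 1) was counted between each of these 5 stages and the next one used. This was done over 11983 genes with at least 1 FPKM in a stage. HB and HP are not successive, since HE lies between them and was not used. The 26 members that reached this level are the ones to set beside the shares of all genes below. The median of all genes moved by 0.01, 0.11, −0.12 and 0.36 on that scale in these comparisons in order, and differences marked as relative below are given after subtracting it.

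**Figure D4:**
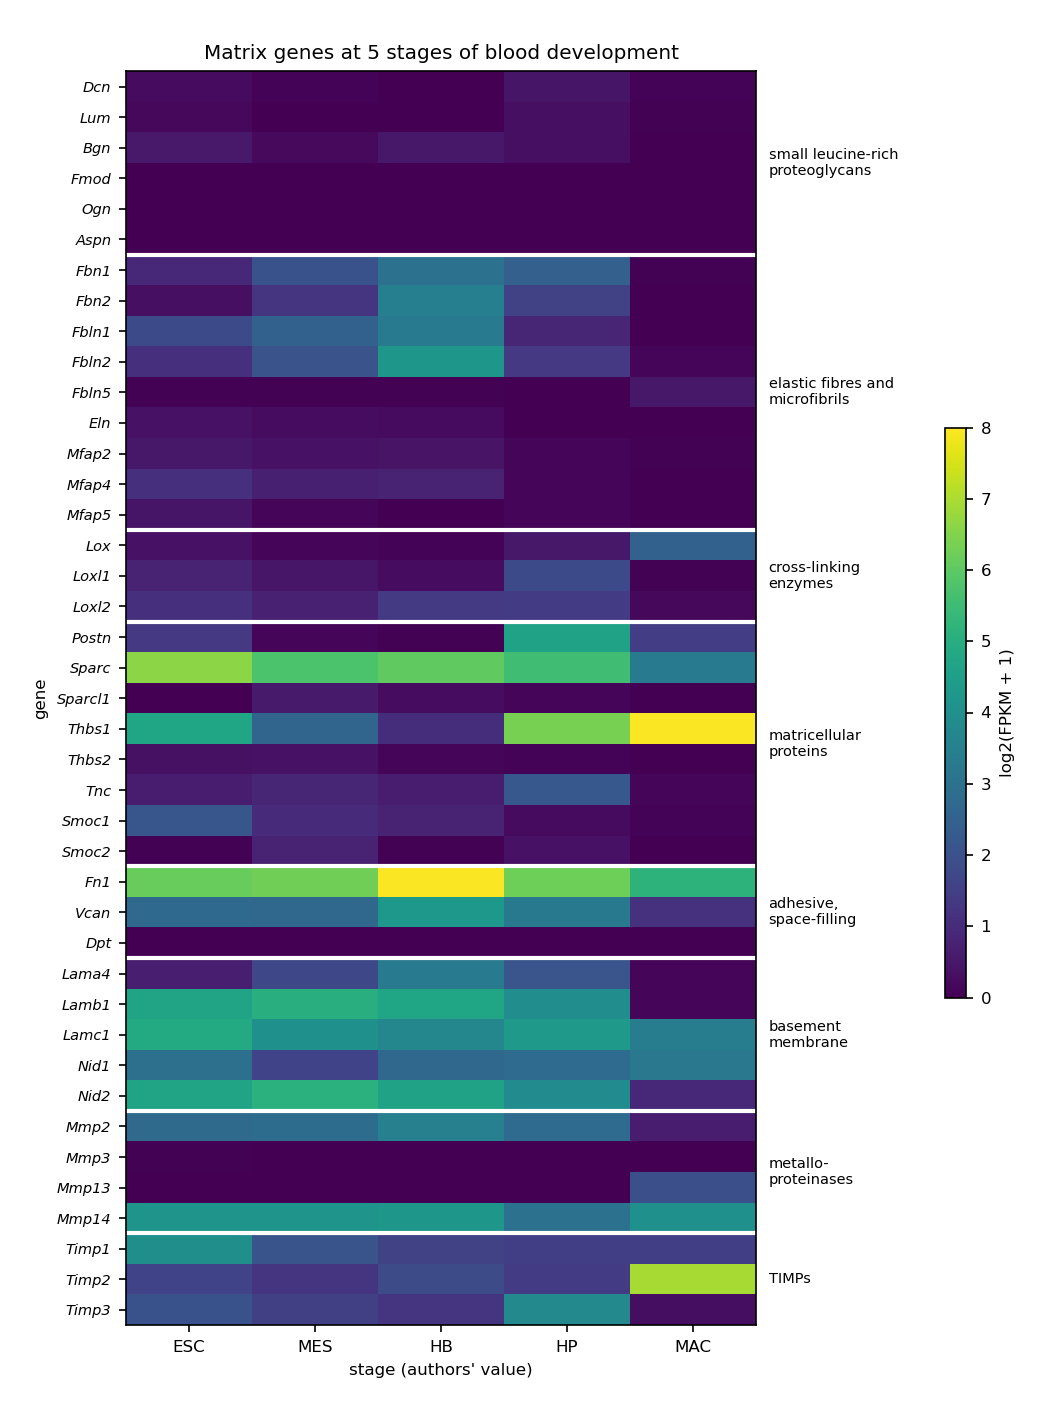
Level of the 41 genes, in rows by role, in the 5 stages, in columns, as log2(FPKM + 1) by color, each value being the authors' combination of 2 replicates. Fn1 (35.2 to 248 FPKM) and Sparc (8.92 to 97.3 FPKM) are brighter in all stages than the proteoglycan rows, which are dark (at most 0.472 FPKM).

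From ESC to MES, Fbn1 and Lama4 were at least 2-fold higher (6.14% of all genes) and 5 genes were lower (6.46%), namely Postn, Thbs1, Smoc1, Nid1 and Timp1. With a pseudocount of 0.1 FPKM 4 genes were higher, Fbn2 and Fbln2 joining the first pair. Timp1 was at 14.7 FPKM in ESC, 3.23 in MES, 1.94 in HB and 1.81 in both HP and MAC. ESC was thus the stage with the highest Timp1, and it was the stage cultured on MEFs. The fibroblast markers summed to 6.40 FPKM in ESC and to 17.9, 30.4, 37.95 and 2.34 FPKM in the later stages in order, of which 2, 4, 3, 3 and 1 genes reached 1 FPKM, and their part in these results was not tested. Nid1 was at 6.69, 2.07, 5.56, 5.89 and 8.22 FPKM in ESC, MES, HB, HP and MAC.

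At the transition from MES to HB, where cells with blood and endothelial potential appear, 6 members were at least 2-fold higher, against 2.15% of all genes, and 1 was lower, against 2.81%. The 6 were Fbn2, Fbln2, Fn1, Vcan, Lama4 and Nid1. Fn1, required for the vessels and heart of the embryo, was at 69.4, 76.7, 248, 74.4 and 35.2 FPKM in ESC, MES, HB, HP and MAC. Vcan was at 5.72, 5.38, 18.0, 8.49 and 1.19 FPKM in developmental order, and Fbln2 at 1.10, 3.18, 17.7, 1.48 and 0.0823 FPKM. Among the stages used, these genes share a maximum in HB and are lower in MES and HP. Their level in HE, which directly follows HB, was not examined. Fbn2 was at 0.249, 1.33, 10.1, 1.93 and 0.0199 FPKM, and Lama4 at 0.607, 2.30, 8.97, 3.35 and 0.0715 FPKM. Relative to the median of all genes the differences from MES to HB were 2.13 for Fbn2, 2.05 for Fbln2, 1.56 for Fn1, 1.48 for Lama4, 1.46 for Vcan and 0.98 for Nid1. Thbs1 was the gene that was lower, by −1.65 relative to the median. Markers listed for other lineages also differed. The 9 genes listed for extraembryonic endoderm summed to 8.35 FPKM in MES, 37.1 in HB and 3.83 in HP. Of these, 3 were over 1 FPKM in HB, namely Gata4 (24.4 FPKM), Gata6 (9.03) and Sox7 (2.65). Sox17, Afp, Ttr, Amn, Cubn and Foxa2 were each under 1 FPKM in HB. Kdr, which encodes FLK1, was at 77.6 FPKM in HB. Whether cells of other lineages added to the HB values was not tested.

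From HB to HP, which spans the unused HE stage, 5 members were at least 2-fold higher (7.77% of all genes) and 7 were lower (7.71%). The lower genes were Fbn2, Fbln1, Fbln2, Fn1, Vcan, Lama4 and Mmp14, which include 5 of the 6 genes higher in HB than in MES. After scaling to the same upper quartile, Vcan was no longer 2-fold lower in HP (−0.94) and Nid1 no longer counted as 2-fold higher in HB. Fbln1 was at 2.45, 4.65, 8.89, 0.824 and 0.0174 FPKM from ESC to MAC. Those that were higher in HP were Loxl1, Postn, Thbs1, Tnc and Timp3. Thbs1, also a platelet granule protein, went from 25.0 to 5.05 and 1.08 FPKM over ESC, MES and HB and was then at 81.3 FPKM in HP and 248 in MAC. Postn was at 1.5, 0.0996, 0.0299, 23.3 and 1.72 FPKM and Timp3 at 3.03, 1.86, 1.35, 12.6 and 0.231 FPKM. Tnc reached 3.63 FPKM and Loxl1 2.51 FPKM in HP, and each was under 1 FPKM in the other stages used. Relative to the median of all genes the differences were 5.42 for Thbs1, 4.68 for Postn and 2.65 for Timp3. In HP the collagen genes Col1a1 (13.1 FPKM), Col1a2 (17.6) and Col3a1 (6.13) were present, and the other 4 fibroblast markers in the table were under 1 FPKM, with Twist1 at 0.659, Pdgfra at 0.494, Prrx1 at 0.050 and Thy1 at 0.00523 FPKM.

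From HP to MAC, 15 of the 26 members that reached 1 FPKM in a stage were at least 2-fold lower, against 12.5% of all such genes. A further 5 were higher, against 30.2%. The lower genes were Fbn1, Fbn2, Fbln2, Loxl1, Loxl2, Postn, Sparc, Tnc, Fn1, Vcan, Lama4, Lamb1, Nid2, Mmp2 and Timp3, and laminins and nidogens are described first. Lamb1 was at 24.6, 31.3, 25.2 and 14.3 FPKM up to HP and at 0.0994 FPKM in MAC, and Nid2 at 24.8, 33.7, 23.2, 13.4 and 0.835 FPKM. Sparc was at 97.3, 51.9, 64.8, 45.4 and 8.92 FPKM in this order. Lamc1 differed less, with 28.5, 15.1, 12.0, 18.8 and 9.41 FPKM, so that the laminin partners Lamb1 and Lamc1 parted in MAC. Of the β chains outside the members, Lamb2 was at 6.42, 5.49, 7.05, 4.91 and 7.50 FPKM, and Lamb3 was at 0.214 FPKM in MAC. Relative to the median the differences were −4.16 for Lamb1, −3.82 for Timp3, −3.52 for Postn, −3.33 for Nid2, −2.58 for Sparc and −1.29 for Lamc1. Mmp2 was at 5.86, 6.15, 10.2, 5.94 and 0.513 FPKM, with the highest level in HB and the lowest in MAC.

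The genes that were higher in MAC than in HP were Timp2, Lox, Mmp13, Thbs1 and Mmp14. Timp2 was at 2.05, 1.32, 2.55 and 1.61 FPKM up to HP and at 123 FPKM in MAC, where its difference was 5.21 after subtracting the median. Lox was at 0.313, 0.104, 0.0448, 0.424 and 4.58 FPKM, and Mmp13 was at 0.00926 FPKM in ESC, listed at 0 in MES, HB and HP and at 2.90 FPKM in MAC. These 3 genes, an inhibitor, a cross-linking enzyme and a collagenase, were near 0 or low in all earlier stages used. Mmp14 was at 16.7, 16.7, 17.8, 7.10 and 15.3 FPKM, so that MAC returned to the level of the early stages, and it and Thbs1 were no longer 2-fold higher after all stages were scaled to the same upper quartile (0.34 and 0.87 on the log2 scale). Mmp3 was at 0.0324 FPKM in ESC and listed at 0 thereafter. Among the stages used, the 3 inhibitors thus had their maxima in different ones, Timp1 in ESC, Timp3 in HP and Timp2 in MAC. Among other matrix enzymes in MAC, Plau was at 441 FPKM, Mmp19 at 189, Mmp12 (macrophage elastase) at 125, Adamts1 at 116 and Mmp8 at 14.4 FPKM. In MAC 6 of 6 macrophage markers in the table were over 1 FPKM and summed to 1263 FPKM, against 16.8 FPKM in HP.

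**Figure D5:**
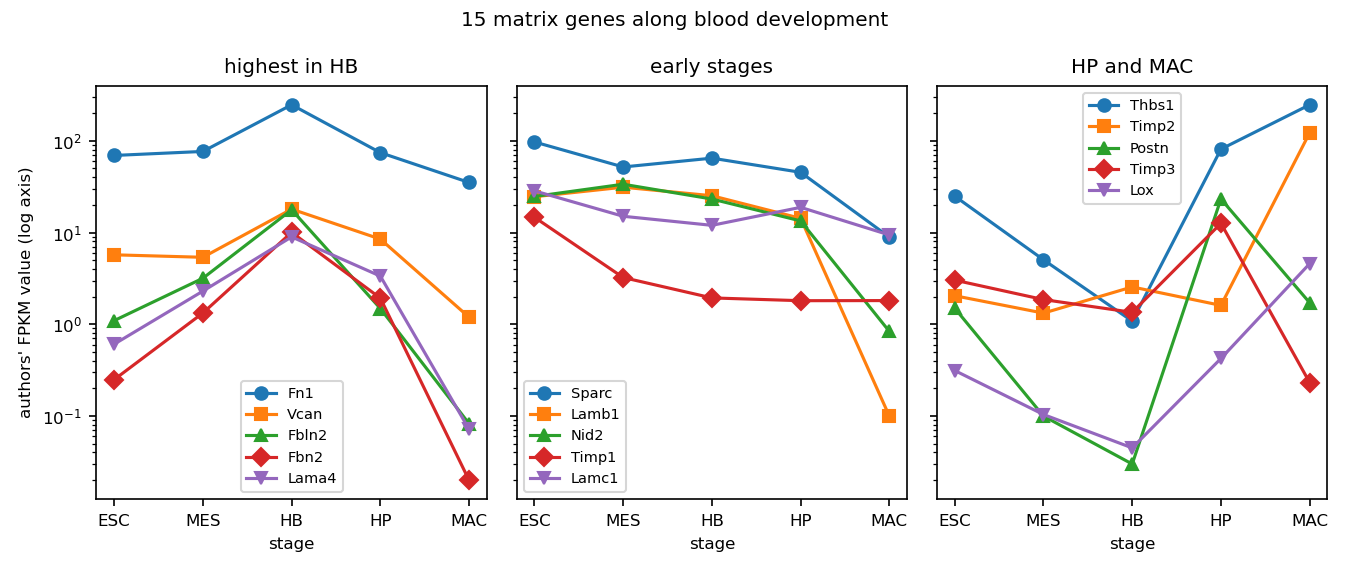
Level of 15 members in FPKM, on a log axis, across the 5 stages, in 3 panels for genes highest in HB, genes of the early stages and genes higher in HP or MAC, with 1 point per stage and no error bars because replicates are combined. Of the stages shown, Fn1 is highest in HB at 248 FPKM, Lamb1 drops to 0.0994 FPKM in MAC, and Thbs1 and Timp2 end at 248 and 123 FPKM in MAC.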

How the data were processed

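RNA-seq of 18 samples was analysed from tables of FPKM deposited by the authors. Per the labels and methods, the authors aligned reads to mm10 (GRCm38) and calculated FPKM with Cufflinks, after TopHat for the fibroblasts; duplicates were removed from the stage data, which limits high values. The stage table holds 22089 rows, 1 for each transcription start site, with replicates combined, and rows were summed per gene (2 members had more than 1 row). The fibroblast table has 1 value per gene and library. The number of reads is unknown from FPKM. Relative depth, estimated from steps of values under 0.3 FPKM, was 0.587 to 1.56 of uFIB at day 12, but only 15.3% to 19.3% of low genes shared the step, so no count test was run. A pseudocount of 1 FPKM was used, which understates differences of low genes. Fibroblasts were tested with limma 3.58.1 in R 4.3.3 (trend, additive treatment and day, 3 residual degrees of freedom), with Benjamini-Hochberg adjustment over genes whose mean reached 1 FPKM. Counts of 2-fold differences used Python 3.11.15, pandas 2.3.3, NumPy 2.4.6 and matplotlib 3.10.9. Members and gene lists were chosen with earlier results of these data known. Named members were those reaching 50 FPKM in a table and the 3 largest rises and falls per comparison; other members are given by ranges. Procedures were tested on simulated data. Alternatives were a pseudocount of 0.1, no filter, upper quartile scaling, leaving out libraries, the mean of both uFIB libraries and the highest start site. 1 further column of stage values (HE) was not used, and binding data were not analysed here.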

Additional observations from a re-analysis of the deposited data

Results flagged for a closer look

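For 2 members in SL, 1 in SFGL and 11 in FGL the difference from uFIB had opposite signs at day 12 and day 21. The change between the days could not be tested with 1 library per treatment and day. Thbs1 was lower than uFIB at day 12 and higher at day 21, and its difference changed by 1.48 in SL and 1.80 in SFGL on log2(FPKM + 1). Thbs1 in uFIB itself went from 1492 to 443 FPKM between the days, whereas in SFGL it was at 443 and 459 FPKM. The difference of Loxl2 in SL changed by 0.86. In the libraries labelled FGL the largest change was that of Eln, 1.23, from 43.8 FPKM against 89.5 in uFIB at day 12 to 111 against 95.5 at day 21. The difference of Mfap2 changed by 0.79, that of Fbln1 by 0.59, that of Fmod by 0.59 and that of Ogn by 0.31. Smaller changes were those of Timp1 (0.28), Timp2 (0.17), Loxl1 (0.16), Bgn (0.14) and Lox (0.10), and that of Lum was −0.33.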

How the results depend on the processing

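No paired analysis was possible because the stage columns carry no replicate values and each fibroblast group has 1 library per day, so that replicate numbers pair nothing; the fibroblast libraries were matched by day, which is a term of the limma model. Of the counts of members, 76 values under other settings stayed within 1.5 times the reported count, as did 48 with a library left out. The exceptions were the members at least 2-fold higher in MES than in ESC, 4 with a pseudocount of 0.1 FPKM (with Fbn2 and Fbln2 added), and those higher in MAC than in HP, 3 after upper quartile scaling (Lox, Mmp13 and Timp2); the second exception follows from the scale of MAC, where the median difference of all genes was 0.36 as deposited and −0.21 after scaling. Leaving out each library gave 29 to 33 members lower in SL and 33 to 37 in SFGL, and without a filter these were 29 and 32. For single members 25 calls were lost and 9 gained under other settings, the lost ones on Timp2, Fbln1, Eln, Loxl1, Smoc1, Timp3 and Dcn. The difference of Loxl2 in SL ranged from −0.38 to 0.22 with a library left out, and was above 0 without SL (0.22) or uFIB (0.19) at day 12. Where leaving out a library leaves 1 in an arm, that library is assumed to vary like the others. FPKM without counts gives no interval for low values, and the stages have no error at all.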
